A study of Mus musculus with 4 samples.

Results

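The 37 genes described here encode enzymes of cholesterol and fatty acid synthesis, the regulators that sense cellular sterol, and proteins that move sterol within or out of the cell. They were chosen by gene name, and each had a row in the table of 18169 rows. RNA was sequenced from primary neural stem/progenitor cells (NSCs) of C57BL/6 mice, 2 cultures of the +/+ genotype and 2 of the Chd5-/- genotype, in which the chromatin remodeler Chd5 is lost. Each culture was grown from periventricular tissue of a single newborn in medium with epidermal growth factor at 20 ng/ml and fibroblast growth factor 2, and stranded libraries were made from its mRNA. The growth protocol gives postnatal day 1 for all cultures, but the age entry is day 1 or 2 in +/+ samples and day 3 or 4 in Chd5-/- samples. Age by these entries and genotype cannot be told apart. Chd5-/- NSCs came from a mouse line made earlier, and which cells lose Chd5 in that line is not given in the sources used here.

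Cells build cholesterol from acetyl-CoA through mevalonate, isoprenoid units and squalene, and fatty acids from acetyl-CoA through malonyl-CoA. Both routes are controlled at transcription by the sterol regulatory element binding proteins, which Srebf1 and Srebf2 encode. When membrane sterol is low, the escort protein Scap carries the precursors to the Golgi, where proteases free the active factor, and when sterol is high the Insig proteins hold Scap in the endoplasmic reticulum. In the brain cholesterol is made locally, since lipoproteins of the blood do not cross the blood-brain barrier, and the demand is high when neural cells divide and when oligodendrocytes make myelin.

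SREBPs bind sterol regulatory elements near the start site together with factors such as NF-Y, which reads CCAAT boxes, and Sp1, which reads GC boxes. Promoter windows of 300 bases, 250 before and 50 after the RefSeq gene start of GRCm38.p6, were matched for 29 of the 37 genes. A sterol element of the form TCACNCCAC was searched on both strands and was found in 1 of the 29, Hmgcs1, against 1.44% of all 27025 promoters. CCAAT was found in 22 of the 29 (75.9%), against 41.1% of all promoters, and the GC box GGGCGG in 23 (79.3%), against 38.2%. The E-box CACGTG was found in 6 (20.7%), against 8.09%. These are matches of letters and not measured binding. The 27025 promoters were taken whether or not the gene was expressed in these NSCs. Shares over expressed genes alone were not computed. The 4 promoters shown are those of Hmgcs1, which holds the only sterol element match and had the smallest genotype difference, of Mvk and Mvd, chosen for their large differences, and of Insig1, the feedback gene of the pathway. They lie at chr13:119690101-119690400 on the plus strand (Hmgcs1), chr5:114444019-114444318 on the plus strand (Mvk), chr8:122443373-122443672 on the minus strand (Mvd) and chr5:28071162-28071461 on the plus strand (Insig1). Capitals mark the TCACNCCAC match and the CCAAT boxes, which read ATTGG where the box is on the other strand.
Hmgcs1: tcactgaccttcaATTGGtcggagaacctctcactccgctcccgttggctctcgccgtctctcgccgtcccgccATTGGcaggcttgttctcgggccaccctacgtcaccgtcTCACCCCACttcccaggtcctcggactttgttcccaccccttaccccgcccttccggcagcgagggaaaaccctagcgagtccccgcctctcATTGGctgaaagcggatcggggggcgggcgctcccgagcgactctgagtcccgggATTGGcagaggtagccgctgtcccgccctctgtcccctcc
Mvk: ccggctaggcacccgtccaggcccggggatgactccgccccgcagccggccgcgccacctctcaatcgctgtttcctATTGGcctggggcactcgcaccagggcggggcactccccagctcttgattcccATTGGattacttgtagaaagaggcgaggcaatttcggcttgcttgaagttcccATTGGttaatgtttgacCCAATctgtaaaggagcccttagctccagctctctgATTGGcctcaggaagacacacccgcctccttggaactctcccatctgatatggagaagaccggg
Mvd: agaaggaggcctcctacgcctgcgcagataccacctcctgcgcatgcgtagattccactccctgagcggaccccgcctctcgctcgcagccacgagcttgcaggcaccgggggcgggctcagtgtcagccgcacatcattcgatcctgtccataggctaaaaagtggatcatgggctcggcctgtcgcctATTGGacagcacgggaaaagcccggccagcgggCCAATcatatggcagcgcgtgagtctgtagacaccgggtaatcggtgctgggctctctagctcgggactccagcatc
Insig1: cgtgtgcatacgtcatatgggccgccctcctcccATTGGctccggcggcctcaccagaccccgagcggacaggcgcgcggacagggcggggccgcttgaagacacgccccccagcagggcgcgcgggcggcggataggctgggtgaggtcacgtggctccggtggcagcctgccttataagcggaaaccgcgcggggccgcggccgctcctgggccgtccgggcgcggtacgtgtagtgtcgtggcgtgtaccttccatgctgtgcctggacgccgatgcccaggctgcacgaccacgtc

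The sterol element of Hmgcs1 lies from base -137 to -129 relative to the start, between CCAAT boxes that begin at -176 and -45. Mvk holds 5 CCAAT boxes in its window and Mvd holds 2, and neither window holds TCACNCCAC. Fads2, also with a large difference, holds 0 CCAAT boxes, and Nsdhl and Hmgcs1, with small differences, hold 4 each. These genes are examples only. Whether the number of CCAAT boxes goes with the genotype difference was not tested. Lpin1, the gene with the smallest p-value of the 37, holds none of the 4 motifs in its window.

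Values are TPM, a unit that corrects for transcript length and sums to the same total in each sample. They keep no record of read number, so depth is unknown and the spread rests on 2 cultures per genotype. Chd5 itself was at 0.39 and 0.37 TPM in +/+ cultures against 0.06 and 0.04 TPM in Chd5-/- cultures. These values are low in both genotypes and under the mean of 1 TPM required for testing, so Chd5 was not tested. All 10 NSC markers were detected, and their summed TPM was 9859 and 8174 in +/+ cultures against 3969 and 6917 in Chd5-/- cultures. Only 2 of 6 microglial and 2 of 4 endothelial markers had a row, with sums at or under 0.70 TPM, and the neuronal markers, of which Map2 alone was abundant, summed to between 369 and 797 TPM. Astrocyte markers summed to 258 and 623 TPM in +/+ cultures against 443 and 748 TPM in Chd5-/- cultures. Of 9 oligodendrocyte lineage markers 8 had a row, and these summed to between 548 and 674 TPM in 3 samples and to 1176 TPM in Chd5-/- replicate 2, although the myelin gene Mag was at or near 0 in all 4. Mesenchymal markers summed to 17.2 TPM in Chd5-/- replicate 1 and to at most 0.32 TPM elsewhere. The 20 most abundant rows took 32.4% and 35.6% of all TPM in +/+ cultures against 21.6% and 22.8% in Chd5-/- cultures, and the median difference over all rows tested was 0.34 on the log2 scale.

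Lipid synthesis genes were abundant in NSCs of both genotypes. The 37 genes together took 5168 and 4086 TPM in +/+ cultures (4627 ± 765, SD, n = 2) against 4412 and 6437 TPM in Chd5-/- cultures (5424 ± 1432, SD, n = 2), so that the genotypes overlapped. Their mean TPM ran from 3.14 for Mvk to 1643 for Scd2, the row of rank 40 among 18169. All 37 had a mean of at least 1 TPM and were tested.

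**Figure D1:**
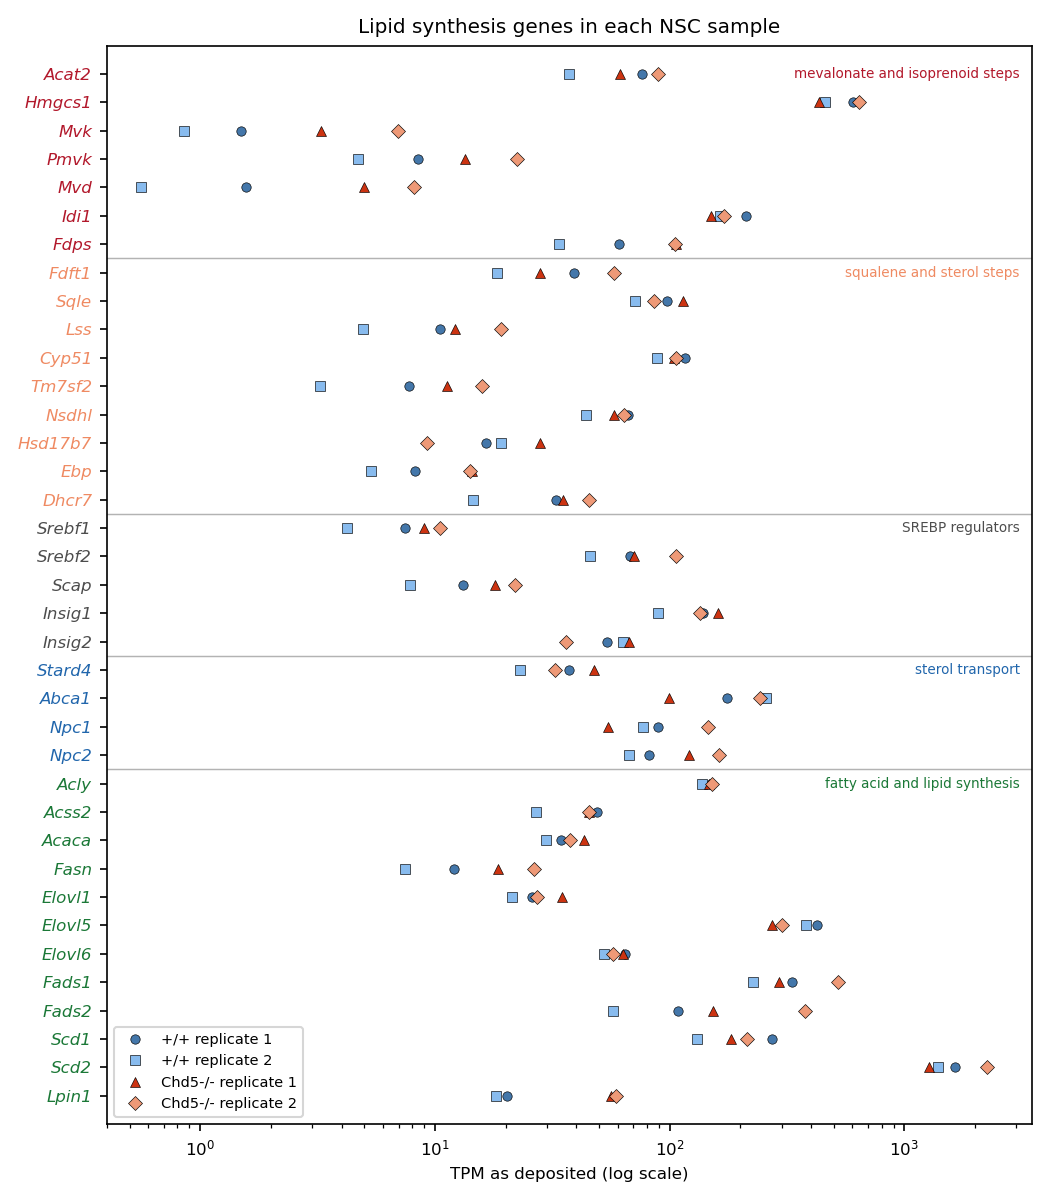
TPM as deposited (x axis, log scale) of the 37 lipid synthesis genes (y axis, grouped and coloured by role), with one symbol for each of the 4 NSC samples. Scd2 lies highest in every sample, and Mvk and Mvd lie lowest, with both Chd5-/- samples to the right of both +/+ samples for Mvk and Mvd.

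To ask whether the genotypes differed in these genes, log2(TPM + 1) was compared with limma over 12576 rows. None of the 37 genes had an adjusted p-value under 0.05, against 0.0557% of all rows (7 rows), and the smallest limma adjusted p among them was 0.120, for Lpin1. At an unadjusted p under 0.05, 11 of the 37 (29.7%) were higher in Chd5-/- NSCs, against 21.9% of all rows, and 0 were lower, against 2.27% of all rows. In 17 of the 37 (45.9%) both Chd5-/- samples lay above both +/+ samples, against 46.3% of all rows, and in 1 (2.70%), Elovl5, both lay below, against 13%. The other 19 overlapped. The median difference of the 37 was 0.41 on the log2 scale, 0.07 above the median of all rows. Their share of genes above the +/+ range was therefore close to that of the whole table.

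Within that table the roles differed in their values. The 7 mevalonate and isoprenoid genes had a median difference of 1.21, the 9 squalene and sterol genes 0.57, the 5 SREBP regulators 0.63, the 4 sterol transport genes 0.26 and the 12 fatty acid and lipid genes 0.32, beside 0.34 for all rows. With median-of-ratios scaling the medians in the same order were 0.80, 0.17, 0.22, -0.14 and -0.09, beside -0.03 for all rows. Relative to all rows the sterol median was 0.23, but it was -0.21 without +/+ replicate 2 and 0.69 without +/+ replicate 1, while the mevalonate median was 0.87 and stayed at 0.53 or more whichever sample was left out. With GC and length trends removed the mevalonate median relative to all rows was 0.40. The differences between the roles were not tested.

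In the mevalonate route 4 of the 7 genes, Mvd, Mvk, Pmvk and Fdps, lay above the +/+ range in both Chd5-/- cultures (57.1%, against 46.3% of all rows). These 4 are among the 12 genes of highest GC content, and 75% of rows in that GC range lay above the +/+ range. Mvd, which decarboxylates mevalonate diphosphate to the first isoprenoid unit, was at 1.56 and 0.56 TPM in +/+ cultures against 5 and 8.12 TPM in Chd5-/- cultures. It had the largest difference of the 37 genes, 1.89 ± 0.42 (SE) on the log2 scale, with a limma adjusted p of 0.121. Mvk, the kinase that first phosphorylates mevalonate, was at 1.49 and 0.85 TPM in +/+ cultures against 3.27 and 6.94 TPM in Chd5-/- cultures. Pmvk, the next kinase, was at 8.51 and 4.68 TPM against 13.49 and 22.40 TPM. Both kinases lay above the +/+ range in both Chd5-/- samples, with differences of 1.44 ± 0.44 and 1.33 ± 0.40 and a limma adjusted p of 0.153 each. With GC and length trends removed these differences were 0.43 and 0.38.

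Fdps, which joins isoprenoid units into farnesyl diphosphate, was at 60.68 and 33.66 TPM in +/+ cultures against 106.48 and 105.09 TPM in Chd5-/- cultures. The Chd5-/- samples were nearly equal and above both +/+ samples, and the difference was 1.21 ± 0.33 with a limma adjusted p of 0.134. Hmgcs1, which makes HMG-CoA and carries the sterol element shown above, was at 602.98 and 459.28 TPM in +/+ cultures against 433.10 and 641.13 TPM in Chd5-/- cultures. Here 1 Chd5-/- sample was below and the other above both +/+ samples, and the difference was 0.00 with a 95% interval from -0.77 to 0.78. Idi1, the isomerase of the isoprenoid units, and Acat2, the thiolase that opens the route, also overlapped, with differences of -0.22 ± 0.24 and 0.47 ± 0.41. Hmgcs1 and Idi1, with GC contents of 43.1% and 41.9%, thus had differences below the median of all rows. Mvd, Mvk, Pmvk and Fdps, with GC contents of 54.5% to 59.6%, were above it.

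Of the 9 squalene and sterol genes, 4 (44.4%) lay above the +/+ range in both Chd5-/- samples, close to the 46.3% of all rows. Ebp, a sterol isomerase, was at 8.25 and 5.32 TPM in +/+ cultures against 14.35 and 14.08 TPM in Chd5-/- cultures, a difference of 0.99 ± 0.31 (limma adjusted p = 0.156). Tm7sf2, a sterol reductase, was at 7.78 and 3.23 TPM against 11.31 and 15.84 TPM, a difference of 1.24 ± 0.44 (limma adjusted p = 0.182). Lss, which cyclises oxidosqualene to lanosterol, was at 10.46 and 4.94 TPM against 12.13 and 19.20 TPM. The lower Chd5-/- sample of Lss stood little above the higher +/+ sample, and the difference was 0.98 ± 0.43 (limma adjusted p = 0.242). Dhcr7, the last reductase on the way to cholesterol, also did not overlap, with a difference of 0.84 ± 0.43.

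The other 5 sterol genes overlapped between genotypes. Sqle, the squalene epoxidase, was at 97.72 and 71.02 TPM in +/+ cultures against 114.28 and 85.67 TPM in Chd5-/- cultures, a difference of 0.25 ± 0.28. Fdft1, the squalene synthase, had a difference of 0.57 ± 0.50, Nsdhl, a sterol dehydrogenase, 0.17 ± 0.28, and Cyp51, the lanosterol demethylase, 0.06 ± 0.23. Hsd17b7, a ketosteroid reductase, spread most between the Chd5-/- samples, at 28.17 and 9.24 TPM around +/+ values of 16.45 and 19.07 TPM. Its direction therefore depends on which Chd5-/- culture is read.

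Of the 5 regulators, 3 (60%), Scap, Srebf1 and Srebf2, lay above the +/+ range in both Chd5-/- samples, against 46.3% of all rows. These 3 are among the 12 genes of highest GC content. In that GC range 75% of rows lay above the +/+ range. The Insig genes overlapped. Scap was at 13.14 and 7.84 TPM in +/+ cultures against 18.05 and 21.86 TPM in Chd5-/- cultures, a difference of 0.90 ± 0.33 (limma adjusted p = 0.188). Srebf1, whose main products favour fatty acid genes, was at 7.46 and 4.21 TPM against 8.98 and 10.55 TPM, a difference of 0.69 ± 0.35 (limma adjusted p = 0.290). Srebf2, which favours cholesterol genes, was at 67.64 and 46.00 TPM against 70.73 and 106.41 TPM, a difference of 0.63 ± 0.32 (limma adjusted p = 0.293). For both factors the lower Chd5-/- sample was close to the higher +/+ sample.

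Insig1, itself an SREBP target, was at 138.19 and 89.45 TPM in +/+ cultures against 161.02 and 134.52 TPM in Chd5-/- cultures. Insig2 was at 54.25 and 63.21 TPM against 66.82 and 36.12 TPM. Neither gene separated the genotypes, with differences of 0.40 ± 0.29 for Insig1 and -0.25 ± 0.35 for Insig2. After removal of GC and length trends, Scap, Srebf1 and Srebf2 had differences of -0.02, -0.20 and -0.23, so that all 3 changed sign.

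Of the sterol transport genes, the lysosomal pair gave different values. Npc2, which carries cholesterol inside the lysosome, was at 81.68 and 67.00 TPM in +/+ cultures against 120.72 and 162.65 TPM in Chd5-/- cultures, a difference of 0.91 ± 0.26 (limma adjusted p = 0.141). Npc1, its membrane partner, was at 88.96 and 76.74 TPM against 54.77 and 145.97 TPM. The Chd5-/- samples of Npc1 lay on either side of the +/+ samples, and its difference was 0.11 ± 0.48. Abca1, the sterol exporter, and Stard4, a soluble sterol carrier, overlapped as well, with differences of -0.45 ± 0.48 and 0.41 ± 0.34.

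In fatty acid and lipid synthesis, Lpin1 had the smallest p-value of the 37 genes. Lpin1 encodes a phosphatidate phosphatase that feeds the synthesis of triacylglycerol and phospholipids. It was at 20.33 and 18.20 TPM in +/+ cultures against 56.13 and 59.34 TPM in Chd5-/- cultures, so that the 2 samples of each genotype were close and the genotypes were far apart. The difference was 1.54 ± 0.22 (limma adjusted p = 0.120), and 1.18 after removal of GC and length trends.

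Fasn, the fatty acid synthase, was at 12.07 and 7.47 TPM in +/+ cultures against 18.59 and 26.56 TPM in Chd5-/- cultures, a difference of 1.14 ± 0.34 (limma adjusted p = 0.152). Acaca, which makes the malonyl-CoA that Fasn uses, was at 34.51 and 29.66 TPM against 43.15 and 37.65 TPM, a difference of 0.32 ± 0.23 (limma adjusted p = 0.427). Neither gene overlapped, but the Acaca difference was below the median of all rows. Acly and Acss2, which supply acetyl-CoA, had differences of 0.06 ± 0.21 and 0.31 ± 0.33, and both overlapped.

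The 4 desaturases differed in how the cultures fell. Fads2, which opens the synthesis of polyunsaturated fatty acids, was at 108.81 and 57.33 TPM in +/+ cultures against 153.71 and 378.19 TPM in Chd5-/- cultures, a difference of 1.60 ± 0.53 (limma adjusted p = 0.168). Fads1, which acts later in that route and lies beside Fads2 on chromosome 19, was at 332.21 and 227.45 TPM against 291.98 and 523.41 TPM. Scd2, a stearoyl-CoA desaturase of brain, was at 1647.86 and 1390.03 TPM against 1273.09 and 2261.12 TPM. In these 3 genes Chd5-/- replicate 2 was the highest sample. Fads1 and Scd2 overlapped, with differences of 0.51 ± 0.37 and 0.16 ± 0.37. Scd1, the related desaturase, was at 273.74 and 130.78 TPM against 182.91 and 212.91 TPM and overlapped too.

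Chd5-/- replicate 2, in which Fads2, Fads1, Scd2 and Npc1 were highest, also had the highest summed oligodendrocyte lineage, astrocyte and neuronal markers of the 4 samples. Not every marker moved that way, since Olig2 was at 190.31 TPM in Chd5-/- replicate 1 and at 169.68 TPM in replicate 2. Cnp, a myelin-associated enzyme named after its values were seen, was at 36.53, 51.37 and 47.14 TPM in the other samples and at 296.34 TPM in this one. The part of these cells in the lipid gene values was not tested. In bulk RNA a change in the number of cells of a type cannot be told apart from a change in RNA per cell.

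Elovl5, an elongase of polyunsaturated fatty acids, was the only gene of the 37 with both Chd5-/- samples below both +/+ samples in the values as deposited, against 7 genes with median-of-ratios scaling and 3 with GC and length trends removed. It was at 426.56 and 382.47 TPM in +/+ cultures against 274.07 and 301.32 TPM in Chd5-/- cultures, a difference of -0.49 ± 0.22 (limma adjusted p = 0.248). After removal of GC and length trends the difference was -0.51. Elovl6, which extends saturated chains, was at 64.49 and 52.42 TPM against 63.06 and 57.11 TPM, with a difference of 0.04 ± 0.23. Elovl1, which makes very long saturated chains, did not overlap and had a difference of 0.38 ± 0.26.

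**Figure D2:**
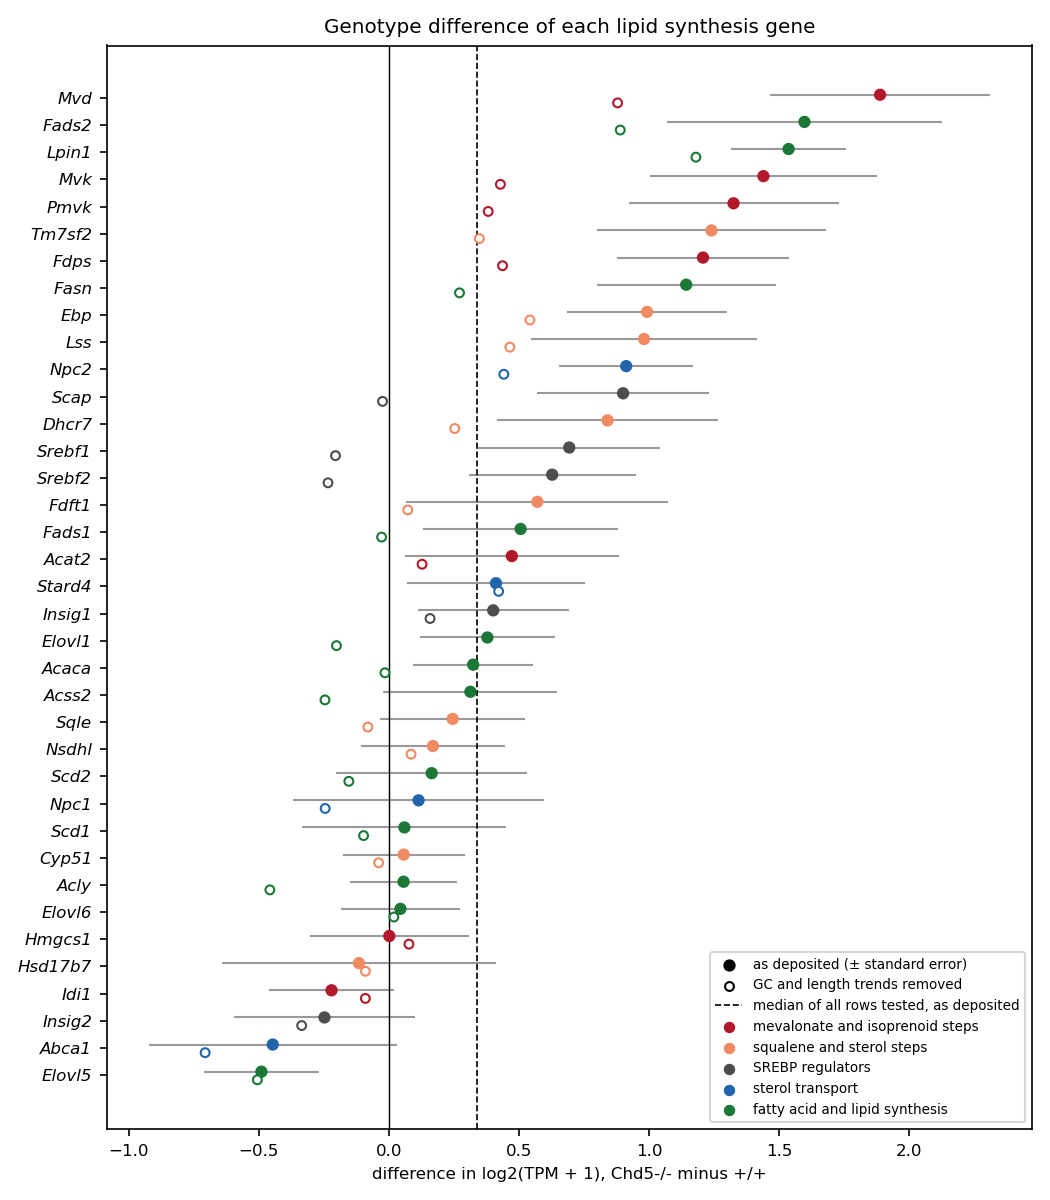
Difference in log2(TPM + 1), Chd5-/- minus +/+ (x axis), of the 37 genes (y axis, ordered by it). Filled points with bars are the values as deposited with limma's standard error, open points are the values after removal of GC and length trends, and the dashed line is the median of all rows tested, 0.34. Filled points run from -0.49 (Elovl5) to 1.89 (Mvd), and among the open points Lpin1 is highest at 1.18.

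The spread between cultures of 1 genotype had a direction of its own in these genes. In 34 of the 37 (91.9%) +/+ replicate 1 was above +/+ replicate 2, against 65.9% of all rows, and the median gap was 0.55 on the log2 scale. The exceptions were Abca1, Insig2 and Hsd17b7. In 26 of the 37 (70.3%) Chd5-/- replicate 2 was above Chd5-/- replicate 1, against 50.1% of all rows. The gap between the +/+ cultures was among the widest in 3 enzymes: Dhcr7 was at 32.65 and 14.47 TPM, Fdft1 at 39.04 and 18.31 TPM and Scd1 at 273.74 and 130.78 TPM. In 20 of the 37 genes the gap between the +/+ cultures was at least as large as the difference between genotypes. The share of all rows with such a gap was not computed, so the count describes these genes only.

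Leaving out a culture moved the count of called genes. Without Chd5-/- replicate 1, 5 of the 37 genes (Mvk, Mvd, Npc2, Fads2 and Lpin1) passed an adjusted p of 0.05, against 9.92% of all rows, and all 5 were higher in the remaining Chd5-/- sample. Without Chd5-/- replicate 2, Lpin1 alone passed, against 8.64% of all rows. Without either +/+ sample 0 of the 37 passed with limma, while 11 (29.7%) had an unadjusted p under 0.05 without +/+ replicate 1, against 12.7% of all rows, and 2 (5.41%) without +/+ replicate 2, against 6.39%. In these fits the lone sample is assumed to vary like the pair of the other genotype.

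Across the 37 genes the genotype difference followed transcript GC content. Between them Spearman's rho was 0.79 and Pearson's r was 0.77, over 37 genes measured in the same 4 libraries, which are not independent replicates, and over all 12109 rows with an annotated transcript rho was 0.62. Abundance went the other way, with rho of -0.54 between GC content and log2 mean TPM over the 37. The 12 genes of lowest GC content, 41.9% to 48.2%, had a median difference of 0.02, and 3775 rows in the same GC range had 0.04. Of these genes 0 lay above the +/+ range, against 24.7% of those rows, and 1 lay below it, against 20.8%. The 13 genes of middle GC content had a median of 0.47, beside 0.39 for 2106 rows, and 5 of them lay above the +/+ range, against 52.2% of those rows. All 12 genes of highest GC content, 52.5% to 59.6%, lay above it, with a median of 1.18 beside 0.82 for 3696 rows of the same GC range, of which 75% lay above it. These 12 were Elovl1, Dhcr7, Fads2, Fdps, Tm7sf2, Pmvk, Fasn, Srebf2, Srebf1, Scap, Mvd and Mvk.

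**Figure D3:**
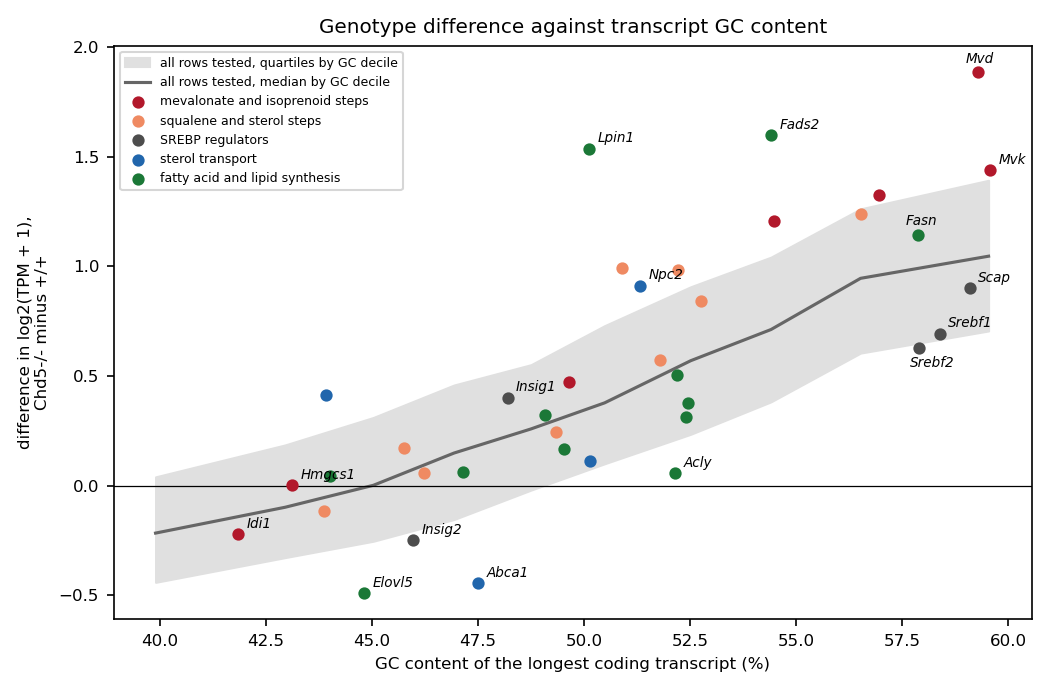
Difference in log2(TPM + 1), Chd5-/- minus +/+ (y axis), against the GC content in percent of the longest coding transcript (x axis), with the 37 genes as points coloured by role and all rows tested as a grey line (median by GC decile) and band (quartiles). The grey line climbs from -0.22 to 1.05, and the points climb with it, with 10 genes above the quartiles of their own GC decile, among them Lpin1, Fads2 and Mvd, and 5 below, Elovl5, Abca1, Acly, Srebf1 and Srebf2.

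GC and length trends were removed in the 12109 rows with an annotated transcript, and shares after removal are over these rows. The median difference of the 37 genes was then 0.02, beside -0.01 for all 12109. Lpin1 alone had an unadjusted p under 0.05 and was higher, against 4.94% of all rows higher, and Acly alone was lower, with -0.46, against 5.67% of all rows. Both Chd5-/- samples lay above both +/+ samples in 5 of the 37 (13.5%), against 21.3% of all rows, and below in 3 (8.11%), against 24.7%. The mevalonate genes had a median of 0.38, the sterol genes 0.09, the transport genes 0.09, the fatty acid and lipid genes -0.06 and the regulators -0.20. Mvd was at 0.88, Fads2 at 0.89, Ebp at 0.54, Npc2 and Fdps at 0.44 and Mvk at 0.43 on this scale. With median-of-ratios scaling, 5 genes were higher and 2 lower at an unadjusted p under 0.05, against 11.1% and 12% of all rows. On that scale 11 of the 37 (29.7%) lay above the +/+ range and 7 (18.9%) below it, against 28.3% and 32% of all rows.

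The ratio of a pair of genes within a sample does not depend on scaling between samples, although it still depends on GC content where the pair differs in it. The ratio of Fads1 to Fads2 was 3.05 and 3.97 in +/+ cultures against 1.90 and 1.38 in Chd5-/- cultures. These genes are of similar GC content, 52.2% and 54.4%, and the ratio was lower in both Chd5-/- samples, by -1.09 on the log2 scale. Hmgcs1 to Fdps was 9.94 and 13.6 in +/+ cultures against 4.07 and 6.10 in Chd5-/- cultures, so that this ratio too was lower in both Chd5-/- cultures. The GC contents of Hmgcs1 and Fdps are 43.1% and 54.5%.

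Elovl6 to Elovl5, a pair of nearly equal GC content, 44.0% and 44.8%, was 0.15 and 0.14 in +/+ cultures against 0.23 and 0.19 in Chd5-/- cultures. Npc1 to Npc2 was 1.09 and 1.15 against 0.45 and 0.90, and Fasn to Acaca was 0.35 and 0.25 against 0.43 and 0.71. None of these 3 ratios overlapped between genotypes, but how often other gene pairs separate in this way was not computed. Fasn and Acaca differ in GC content, 57.9% and 49.1%. After removal of both trends the log2 difference between genotypes went from 0.82 to 0.29 for Fasn to Acaca and from -1.21 to -0.36 for Hmgcs1 to Fdps. It went from -1.09 to -0.92 for Fads1 to Fads2, from -0.80 to -0.69 for Npc1 to Npc2 and from 0.53 to 0.52 for Elovl6 to Elovl5. Insig1 to Insig2, Srebf1 to Srebf2, Scd1 to Scd2 and Sqle to Lss overlapped. With 2 samples per genotype a two-sided exact permutation test of a ratio cannot go below p = 0.333, and the ratios are given as values with no test.

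**Figure D4:**
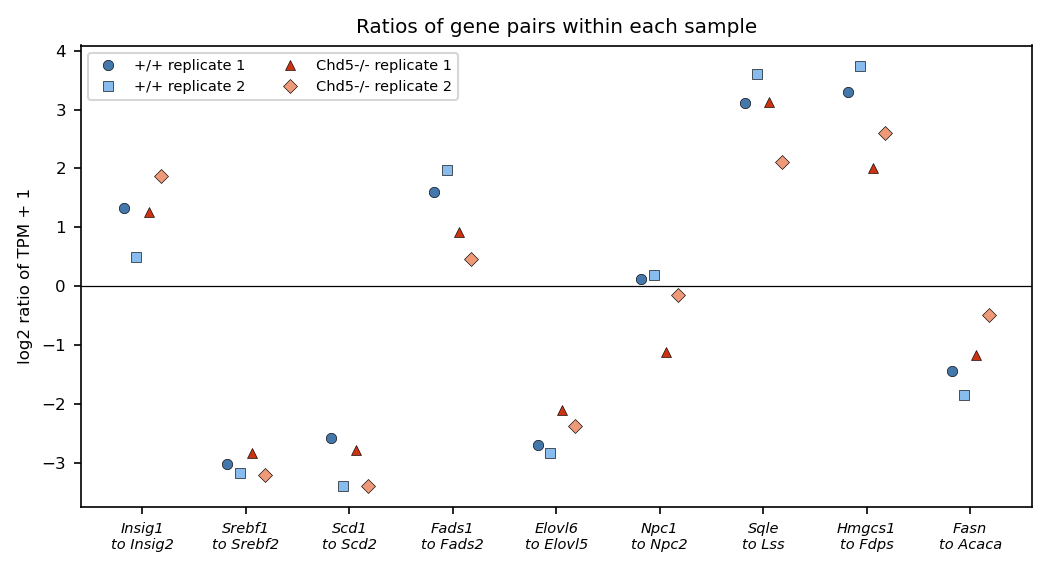
Log2 ratio of TPM + 1 within each sample (y axis) for 9 pairs of lipid genes (x axis), with one symbol for each of the 4 samples. Both Chd5-/- samples lie below both +/+ samples for Fads1 to Fads2, Npc1 to Npc2 and Hmgcs1 to Fdps, and above them for Elovl6 to Elovl5 and Fasn to Acaca.

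Another 39 genes of lipid metabolism were listed beside the 37, and 35 of them were tested, since Acacb, Abcg1, Nr1h3 and Mylip had a mean under 1 TPM. Their median difference was 0.21, and 0 passed an adjusted p of 0.05 with limma, while 7 (20%) were higher and 0 lower at an unadjusted p under 0.05, against 21.9% and 2.27% of all rows. The smallest p-values among those higher were for Pcyt2, Fabp5 and Nr1h2. Pcyt2, of phosphatidylethanolamine synthesis, was at 5.96 and 3.50 TPM in +/+ cultures against 18.04 and 17.40 TPM in Chd5-/- cultures. Its difference of 1.74 was 0.74 after removal of GC and length trends. Fabp5, a fatty acid binding protein, was at 435.64 and 416.31 TPM against 1381.69 and 959.59 TPM, and its difference of 1.43 was 1.28 after removal of GC and length trends. Nr1h2, an oxysterol receptor, was at 1.73 and 0.94 TPM against 5.88 and 6.33 TPM. The Nr1h2 difference of 1.63 was 0.60 after the same removal. In all 3 both Chd5-/- samples lay above both +/+ samples. This held for 11 of the 35 tested genes (31.4%), against 46.3% of all rows. In 5 (14.3%) both lay below, against 13% of all rows.

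The smallest p-values among those lower were for Mbtps2, Elovl4 and Fabp7. Mbtps2 encodes a protease that frees SREBP in the Golgi. It was at 45.47 and 50.39 TPM in +/+ cultures against 35.84 and 25.54 TPM in Chd5-/- cultures, a difference of -0.64. Elovl4, an elongase of very long chains, was at 35.07 and 37.02 TPM against 25.77 and 24.30 TPM. Fabp7, a fatty acid binding protein of radial glia that is also an NSC marker, was at 5891.59 and 4315.73 TPM against 1938.77 and 3822.43 TPM. The lipid-binding pair Fabp5 and Fabp7 thus stood on opposite sides of the +/+ range in both Chd5-/- cultures.

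Exons of 6 of the 37 genes overlap coding exons on the other strand (Fdft1, Cyp51, Srebf1, Npc1, Acss2 and Elovl1), and Fdps and Tm7sf2 overlap a coding gene on their own strand. Whether the counting used strand is not given in the sources used here, so these 8 values are uncertain to that extent.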

How the data were processed

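RNA-seq of 4 samples of primary mouse NSCs, 2 +/+ and 2 Chd5-/-, was analysed. The authors deposited TPM values in 1 table; the submitters' processing notes name RSEM 1.2.20, Bowtie2 2.2.3 and the build mm10, without their roles. Values were used as deposited, and 196 gene names are repeated, none of the 37 among them. TPM is not a count, so depth is unknown and no counting interval can be given.

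From TPM, each value was taken as log2(TPM + 1), and the genotypes were compared by limma 3.58.1 under R 4.3.3 (two-sided, moderated with a mean-variance trend, no covariates) in rows averaging 1 TPM or more, with Benjamini-Hochberg adjustment over all 12576 rows. Differences on this scale understate the change of low genes. Cultures came from individual newborns. GC content, length and gene positions were read from GENCODE M21 of GRCm38, from the longest coding transcript, for 96.3% of the rows, and trends were removed by loess (span 0.5). Promoters were RefSeq sequences. The fit was tested on simulated data.

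The 37 genes, the other lists and the tests were chosen with earlier results of these data known. All 37 genes are named. Values in all samples are given for the 12 smallest p-values, the 3 highest mean TPM, the regulators and the ratio pairs, and of the other lipid genes for the 3 smallest p-values in each direction. Cnp, Olig2 and the culture values of Hsd17b7, Dhcr7 and Fdft1 were chosen after their values were seen. A marker from the oligodendrocyte lineage list is not reported here and was left out of its sum. Alternatives were a pseudocount of 0.1, no minimum, median-of-ratios scaling, quantile normalization, trend removal, a replicate block and leaving out each sample. Tables and figures were made with Python 3.11.15, pandas 2.3.3 and matplotlib 3.10.9.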

Additional observations from a re-analysis of the deposited data

How the results depend on the processing

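The spread rests on 2 cultures per genotype, and depth is unknown. Of the 37 genes, 0 passed an adjusted p of 0.05 with limma in the values as deposited or under any alternative that kept all 4 samples. Over all rows the count was 7 as deposited, 4 with a pseudocount of 0.1, 0 without a minimum TPM (3473 at an unadjusted p under 0.05), 6 with median-of-ratios scaling, 1 with quantile normalization, 3 with GC and length trends removed, and 0 to 1247 when 1 sample was left out. Of the 37 genes, 11 (29.7%, against 24.1% of all rows) had an unadjusted p under 0.05 as deposited, 7 (18.9%, against 23%) with median-of-ratios scaling, 6 (16.2%, against 16.9%) with quantile normalization and 2 (5.41%, against 10.6%) with trends removed. The other lipid genes at that threshold numbered 7, and 11 with median-of-ratios scaling and 2 with trends removed. With trends removed the median minus that of all rows was 0.40 for the mevalonate genes and -0.19 for the regulators. The cause of these shifts was not tested.

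None of the genes that changed sign had passed the adjusted threshold. Median-of-ratios scaling moved the median of all rows from 0.34 to -0.03, a shift common to the table, and the difference was then -0.41 for Hmgcs1, -0.17 for Sqle, -0.36 for Cyp51, -0.24 for Nsdhl, -0.012 for Insig1, -0.30 for Npc1, -0.36 for Acly, -0.092 for Acss2, -0.081 for Acaca, -0.022 for Elovl1, -0.36 for Elovl6, -0.35 for Scd1 and -0.25 for Scd2. With quantile normalization it was -0.28 for Hmgcs1, -0.039 for Cyp51, -0.00050 for Nsdhl, -0.013 for Npc1, -0.037 for Acly, -0.11 for Elovl6, -0.037 for Scd1 and -0.11 for Scd2. With trends removed it was -0.081 for Sqle, -0.039 for Cyp51, -0.20 for Srebf1, -0.23 for Srebf2, -0.024 for Scap, -0.24 for Npc1, -0.46 for Acly, -0.25 for Acss2, -0.015 for Acaca, -0.20 for Elovl1, -0.028 for Fads1, -0.097 for Scd1 and -0.15 for Scd2.

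Leaving out 1 sample gave 0 to 5 of the 37 genes at the adjusted threshold, 2 to 16 at an unadjusted p under 0.05, and 4 to 15 of the other lipid genes. At the unadjusted threshold the count over all rows moved too. Like both gene counts, it was highest without Chd5-/- replicate 1 and lowest without +/+ replicate 2. Whether the gene counts moved differently from the table was not tested. Relative to all rows the median of the 37 ran from -0.17 to 0.39 and that of the mevalonate genes from 0.53 to 1.21. That of the sterol genes ran from -0.21 to 0.69 and that of the fatty acid genes from -0.13 to 0.14. Each of these medians but that of the 37 was lowest without +/+ replicate 2 and highest without +/+ replicate 1. Differences changed sign in Acat2 (-0.036 to 0.98), Hmgcs1 (-0.28 to 0.28), Cyp51 (-0.13 to 0.25), Nsdhl (-0.12 to 0.46), Hsd17b7 (-0.87 to 0.64), Insig2 (-0.68 to 0.19), Abca1 (-1.08 to 0.19), Npc1 (-0.58 to 0.81), Acly (-0.012 to 0.12), Acss2 (-0.11 to 0.73), Elovl6 (-0.10 to 0.19), Scd1 (-0.47 to 0.59) and Scd2 (-0.25 to 0.58).

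The labels number the replicates but name no shared litter or day. Same-numbered samples of the 2 genotypes deviated from their group means with a correlation of -0.15 over all rows. With the replicate number as a block, 0 rows passed the adjusted threshold (2289 at an unadjusted p under 0.05) and 9 of the 37 genes (24.3%, against 18.2% of all rows) had an unadjusted p under 0.05. With the pairing crossed, an alternative chosen after seeing the data, 14 of the 37 (37.8%) did, against 24.6% of all rows (3092), and 0 of the 37 passed the adjusted threshold, against 5 rows in all.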
